A study of Homo sapiens with 6 samples.

Results

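The 10 genes described here are 6 transcription factors of mesenchymal cells (SNAI1, SNAI2, TWIST1, TWIST2, ZEB1 and ZEB2) and 4 cadherins (CDH1, CDH2, CDH11 and CDH13). They were chosen by name, and each matched 1 row of a table of 60623 genes. RNA was measured in 6 libraries of LX2, an established line of human hepatic stellate cells, the cells that deposit collagen in a scarring liver. Cells grown in 2% serum were transfected for 36 h with a control siRNA (siNC, genotype labelled WT, 3 libraries) or with an siRNA to SHMT2 (siSHMT2, labelled as SHMT2 knockdown, 3 libraries). SHMT2 is the mitochondrial serine hydroxymethyltransferase, which makes glycine and one-carbon units from serine. Both groups were transfected, and untransfected cells were not analysed here. Whether the libraries of a group stem from separate cultures is not in the labels, and the p-values therefore reflect no more than the spread among these libraries, which may be technical.

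SNAI and ZEB proteins are zinc-finger factors, and TWIST proteins are basic helix-loop-helix factors that act as pairs with E proteins. They bind short E-box sequences, and they are best known for repressing CDH1 (E-cadherin) when epithelial cells turn mesenchymal. Cadherins are calcium-dependent adhesion proteins: CDH2 (N-cadherin) and CDH11 join mesenchymal cells and are tied to actin through catenins, while CDH13 (T-cadherin) has no cytoplasmic domain and is held by a lipid anchor. Hepatic stellate cells are mesenchymal cells and produce CDH2 and several of these factors.

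Expression is given as FPKM, fragments scaled to gene length and to a library total. The reads recovered from the table summed to between 14722344 and 15669139 per library, and the totals used for scaling were 14487813 to 17495471. SHMT2 (ENSG00000182199, chromosome 12, 57229573 to 57234935) was at 40.8, 56.3 and 45.1 FPKM in the siNC libraries and at 2.25, 2.10 and 2.42 in the siSHMT2 libraries, a mean 4.77% of that in siNC. The stellate markers COL1A1 (190 to 252 FPKM over all libraries), COL1A2 (5.75 to 8.34) and PDGFRB (1.77 to 2.83) were present. Of 13 stellate or mesenchymal markers 7 had a mean of at least 1 FPKM, while LRAT, of the retinoid-storing state, was at 0 in all 6 libraries and ACTA2 was at 0.209 to 0.985. Summed over these 13 markers, siNC libraries lay at 1683 to 2592 FPKM and siSHMT2 libraries at 1277 to 1493. Most of the sum was VIM (739 to 930 in siNC and 473 to 527 in siSHMT2) and TIMP1 (632 to 1393 and 559 to 724). TIMP1 is named after its values were seen. The part of this difference in the results was not tested. No hepatocyte marker of 6, endothelial marker of 6 or lymphocyte marker of 4 reached a mean of 1 FPKM. Of 5 epithelial markers SOX9 and KRT7 did (list sums per siNC library of 9.82 to 11.2 FPKM, per siSHMT2 library of 8.72 to 9.66), and of 6 macrophage markers CD14 did (list sums of 14.6 to 19.5 and 13.6 to 15.4).

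A pair of 7-base words, GACTTTA and ACTTTAA, was looked for on the sense strand of each gene's longest annotated 3′ UTR, because an earlier analysis of these same libraries had found them to be common in genes that were lower in siSHMT2. Of the 10 genes, 4 held such a word: CDH2 (1 site), ZEB2 (2 sites), CDH11 (1 site) and SNAI2 (1 site, not shown). The sites below are shown because 3 of these genes are the ones whose siNC and siSHMT2 libraries did not overlap, CDH2 and ZEB2 being lower and CDH11 higher. Such groups that do not overlap, in either direction, were common. They occurred in 36.4% of all genes with a mean of at least 1 FPKM. Among genes with a mean under 1 FPKM and at least 60 reads they occurred in 25.9%. The sequences are GENCODE release 29 transcripts on GRCh38, 5′ to 3′ on the minus strand of the chromosome, with the word in capitals.
CDH2 (chr18:27951630-27951658): ttctagttttaGACTTTAgtttgtttttt
ZEB2 (chr2:144389164-144389192): atagcatttatACTTTAAgcacaactaga
ZEB2 (chr2:144389107-144389135): tatcactacaaACTTTAAaaaactatgtc
CDH11 (chr16:64945826-64945854): agtttttttctGACTTTAttgtgaaagtt

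The CDH2 site begins 506 bases into a 3′ UTR of 1187 bases, the ZEB2 sites 270 and 327 bases into one of 5370 bases, and the CDH11 site 2248 bases into one of 4338 bases. ZEB1 (2549 bases), CDH1 (2049 bases) and CDH13 (5610 bases) have long 3′ UTRs with neither word, and those of TWIST1, TWIST2 and SNAI1 (706, 737 and 830 bases) hold neither. Among 9378 other tested protein-coding genes 24.6% held a word, and among the 3275 with a 3′ UTR of at least 2000 bases 47.0% did. The word-holding genes had a median log2 difference of -0.13 and the rest 0.06, and 23.9% and 5.77% of them were called lower. Since the words were picked on these differences, the values describe that choice. A match is a stretch of letters and was not tested as a site. The siRNA sequences are not given in the labels. Effects of the siRNA on other transcripts, CDH2 included, cannot be told apart here from effects of lower SHMT2.

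CDH2 was the only one of the 7 testable genes whose level changed past the test, and it was 2.33-fold lower in siSHMT2. TWIST1, TWIST2 and ZEB1 had differences within 0.05 of 0 on the log2 scale. SNAI1, ZEB2 and SNAI2 had lower means without passing the test, CDH11 and CDH13 lay below the level needed for it, and CDH1 was at the edge of detection. The test was limma on log2(FPKM + 1), for genes with a mean of at least 1 FPKM, with Benjamini-Hochberg adjustment over all 10865 genes tested and a threshold of 0.05. That scale understates the change of low genes. Of the 7 genes tested, 1 was called lower, where 9.85% of all genes tested were, and 0 were called higher, where 6.07% were. All 7 had a mean above 1 FPKM in both groups, so none was tested because of 1 group alone.

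**Figure D1:**
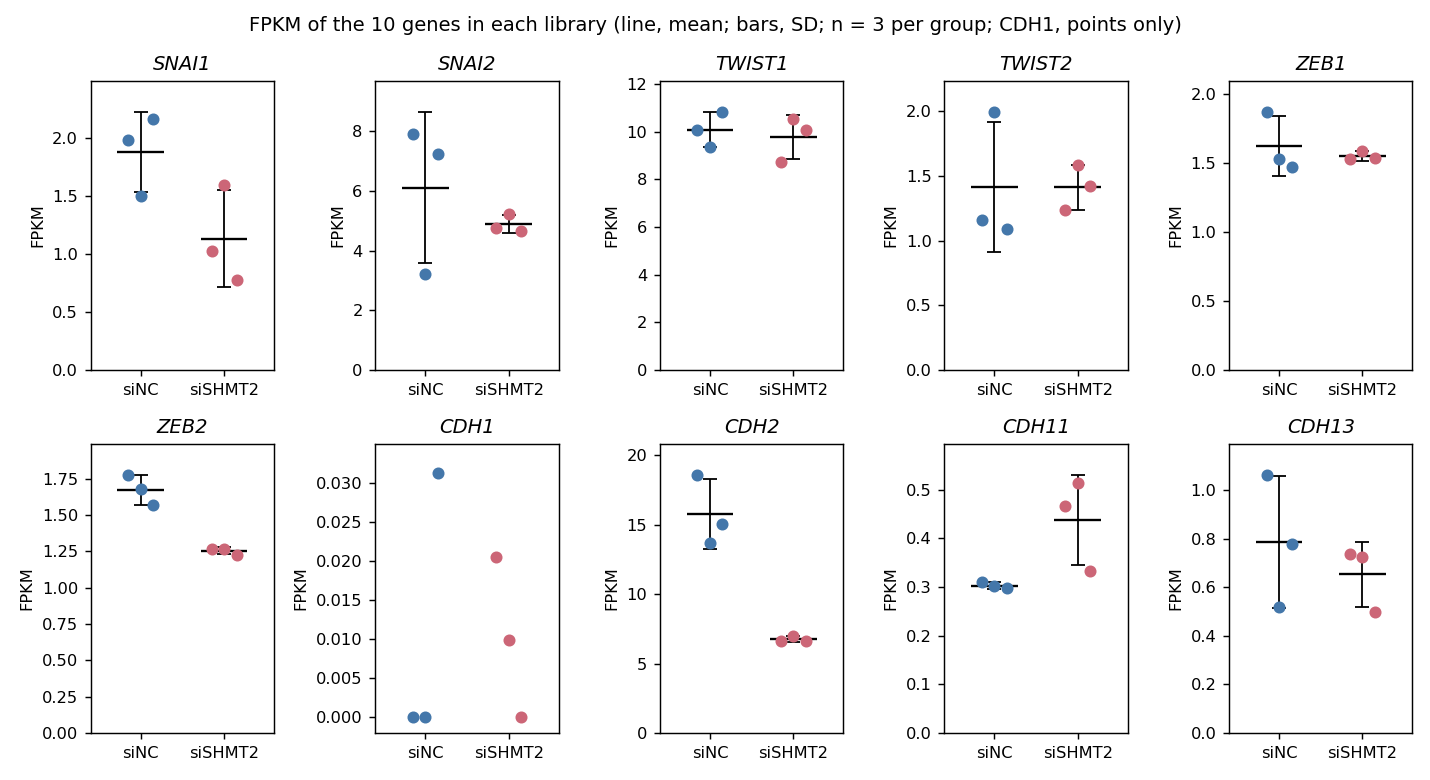
FPKM of each of the 10 genes in the 3 siNC (blue) and 3 siSHMT2 (red) libraries, with a separate linear axis for each gene, a line at the mean and bars of 1 SD (points only for CDH1). The siSHMT2 points lie below all siNC points for CDH2 and ZEB2 and above them for CDH11, and the groups overlap for the other 7 genes.

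CDH2 (ENSG00000170558, chromosome 18, 27950966 to 28177130, minus strand), the N-cadherin of mesenchymal cell contacts, was at 18.6, 13.7 and 15.04 FPKM in the siNC libraries, from 1508, 917 and 1097 reads. In the siSHMT2 libraries it was at 6.65, 6.99 and 6.62 FPKM, from 494, 537 and 485 reads. Every siSHMT2 library was far below the lowest siNC library, and the siSHMT2 libraries lay closer together. That closeness was not particular to CDH2. Comparing reads between pairs of libraries, chi-square per degree of freedom was 23.7 to 48.7 within siNC and 7.26 to 14.3 within siSHMT2. The limma test takes a common spread for both groups. The CDH2 mean went from 15.8 ± 2.55 to 6.75 ± 0.205 FPKM (SD, n = 3), 42.8% of the siNC mean. On the log2(FPKM + 1) scale CDH2 fell by 1.10 (SE 0.123, 95% interval -1.39 to -0.82, limma adjusted p = 0.00136). It was called under all 19 alternative settings, leave-one-out fits included, with differences from -1.20 to -0.98 and adjusted p from 5.50e-06 to 0.0116. Among called genes 161 fell by more. In RNA from bulk cultures, fewer cells making a transcript and less of it per cell cannot be told apart.

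CDH13 (ENSG00000140945, chromosome 16, 82626965 to 83800640, plus strand), the lipid-anchored T-cadherin, was at 1.06, 0.520 and 0.778 FPKM in siNC and at 0.736, 0.722 and 0.499 in siSHMT2. The groups overlapped, and the mean was under the 1 FPKM required. With the reads recovered from the table and limma voom on all genes with at least 60 reads (13.1% called in either direction), its log2 difference was -0.16 (95% interval -0.85 to 0.53, adjusted p = 0.775).

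CDH11 (ENSG00000140937, chromosome 16, 64943753 to 65126112, minus strand), the cadherin of osteoblasts and fibroblasts, was at 0.310, 0.302 and 0.297 FPKM in siNC, from 72, 58 and 62 reads. In siSHMT2 it was at 0.465, 0.513 and 0.334 FPKM, from 99, 113 and 70 reads. All siSHMT2 values were above all siNC values, though siSHMT2 replicate 3 only a little. Among genes with a mean under 1 FPKM and at least 60 reads, 25.9% had groups that did not overlap, 13.0% with siSHMT2 higher. Relative to siNC the mean stood at 144%. The voom difference was 0.58 (95% interval 0.01 to 1.15), and it was not called over all genes (adjusted p = 0.164). Without a filter on low values, limma on log2(FPKM + 1), which called 3.46% of genes, gave 0.14 (adjusted p = 0.464).

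CDH1 (ENSG00000039068, chromosome 16, 68737292 to 68835541, plus strand), the epithelial E-cadherin, had 0, 0 and 3 reads in the siNC libraries and 2, 1 and 0 in the siSHMT2 libraries. The highest value was 0.0312 FPKM, in siNC replicate 3. A library with 0 reads allows up to 3, which is 0.0281 to 0.0339 FPKM at these depths. The siSHMT2 to siNC ratio was 0.986, with a 95% counting interval of 0.132 to 7.36 that covers counting error only. A difference in CDH1 of up to several-fold was thus not detectable at this depth.

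The 4 cadherins together made up 19.97, 14.5 and 16.1 FPKM in the siNC libraries and 7.87, 8.23 and 7.45 in the siSHMT2 libraries. CDH2 held 93.1, 94.3 and 93.2% of that sum in siNC and 84.5, 84.9 and 88.8% in siSHMT2. Its share was thus lower in every siSHMT2 library, at 86.1 ± 2.40% against 93.5 ± 0.687% (SD, n = 3). An exact permutation test, two-sided, gave p = 0.1, the smallest that 3 against 3 libraries allow. Because CDH2 is most of the sum, its lower share restates its lower level and is no separate result. The mean share of CDH11 was 1.82% in siNC and 5.54% in siSHMT2, and that of CDH13 was 4.58% and 8.27%. The mean FPKM of CDH13 was itself not higher in siSHMT2 (0.787 in siNC and 0.652 in siSHMT2). Counted in reads without the length scaling, the CDH2 share differed by -14.5 percentage points, where the FPKM share differed by -7.47.

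**Figure D2:**
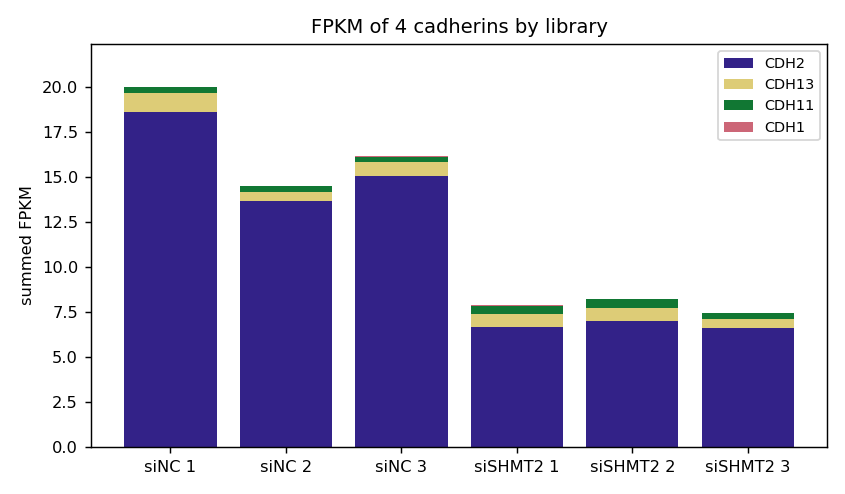
Summed FPKM of CDH2, CDH13, CDH11 and CDH1 (stacked bars, linear axis from 0) in each of the 6 libraries. The siNC sums span 14.5 to 19.97 FPKM, the siSHMT2 sums 7.45 to 8.23, CDH2 is the main part of every bar, and CDH1 is too low to be seen.

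Of the factors, TWIST1 (ENSG00000122691, chromosome 7, 19020991 to 19117636, minus strand) had the highest level. It was at 10.05, 9.37 and 10.8 FPKM in siNC and at 8.71, 10.5 and 10.1 in siSHMT2. The groups overlapped, and the log2 difference was -0.04 (95% interval -0.29 to 0.20, limma adjusted p = 0.825). The sign was not fixed: rescaling the table to TPM gave 0.05.

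TWIST2 (ENSG00000233608, chromosome 2, 238848032 to 238910534, plus strand), the closest relative of TWIST1, was lower, at 1.16, 1.99 and 1.09 FPKM in siNC and 1.23, 1.58 and 1.42 in siSHMT2. These values rest on 38, 54 and 32 reads in siNC and 37, 49 and 42 in siSHMT2. The siNC libraries of TWIST2 were further apart than the groups. The log2 difference was 0.02 (95% interval -0.36 to 0.39, limma adjusted p = 0.963). By voom on the recovered reads it was 0.13, with a wider 95% interval of -0.55 to 0.81 (adjusted p = 0.812).

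SNAI2 (ENSG00000019549, chromosome 8, 48917598 to 48921740, minus strand), also called Slug, was at 7.89, 3.22 and 7.22 FPKM in siNC and at 4.77, 5.22 and 4.67 in siSHMT2. The siNC libraries enclosed the siSHMT2 libraries: replicate 2 was the lowest of all 6, from 153 reads, and replicates 1 and 3 were the highest. The log2 difference was -0.20 (95% interval -0.80 to 0.40, limma adjusted p = 0.654). Without siNC replicate 2, SNAI2 was called lower (-0.54, adjusted p = 0.0120), and so it was with weights fitted to each library (-0.43, adjusted p = 0.0321). Those weights were 0.305 and 0.263 for siNC replicates 1 and 2, and 0.881 to 4.94 for the other 4 libraries. Over all genes tested they called 1827 higher and 1976 lower, against 659 and 1070 without weights. Without siNC replicate 1 the difference was -0.0021.

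SNAI1 (ENSG00000124216, chromosome 20, 49982980 to 49988886, plus strand), also called Snail, was at 1.98, 1.498 and 2.16 FPKM in siNC, from 59, 37 and 58 reads. It was at 1.02, 1.59 and 0.779 FPKM in siSHMT2, from 28, 45 and 21 reads. Of the siSHMT2 libraries, replicates 1 and 3 were below all siNC libraries, while replicate 2 was above the lowest of them. The siSHMT2 mean was 60.2% of that in siNC. The log2 difference was -0.44 (95% interval -0.83 to -0.05 before adjustment), and it was not called over all genes (limma adjusted p = 0.120). By voom on the recovered reads it was -0.69 (95% interval -1.48 to 0.09, adjusted p = 0.213). SNAI1 was called lower with library weights (-0.59, adjusted p = 0.00714) and with voom and quality weights (-0.87, adjusted p = 0.0413), and in none of the other 16 alternative fits.

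ZEB1 (ENSG00000148516, chromosome 10, 31318495 to 31529814, plus strand) was at 1.87, 1.53 and 1.47 FPKM in siNC and at 1.53, 1.59 and 1.54 in siSHMT2. The siSHMT2 values lay inside the siNC range. The log2 difference was -0.04 (95% interval -0.29 to 0.22, limma adjusted p = 0.853), and 0.03 after rescaling to TPM.

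ZEB2 (ENSG00000169554, chromosome 2, 144364364 to 144521057, minus strand), the relative of ZEB1 with the same zinc-finger and homeobox layout, was at 1.77, 1.68 and 1.57 FPKM in siNC, from 772, 606 and 614 reads. It was at 1.27, 1.27 and 1.23 FPKM in siSHMT2, from 506, 522 and 483 reads. The groups did not overlap, with a siSHMT2 mean 74.9% of that in siNC. Of the 7 genes tested 2, CDH2 and ZEB2, had groups that did not overlap, both lower in siSHMT2, where 36.4% of all genes tested did not overlap and 18.6% were lower in this way. The log2 difference of ZEB2 was -0.25 (95% interval -0.49 to -0.01 before adjustment), and it was not called over all genes (limma adjusted p = 0.155). None of its 18 alternative fits called it (adjusted p from 0.0765 to 0.415).

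**Figure D3:**
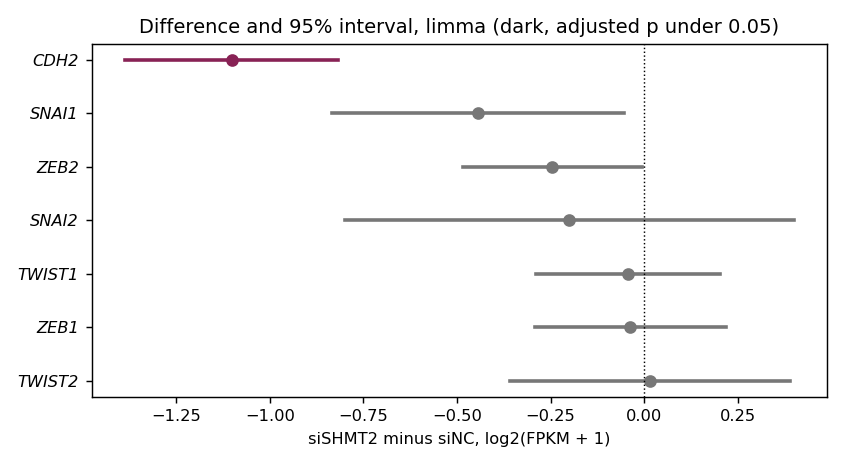
Difference of siSHMT2 minus siNC on the log2(FPKM + 1) scale for the 7 genes tested, with the 95% interval of limma (unadjusted, n = 3 per group). CDH2 lies at -1.10, apart from the other 6 genes, and SNAI1, ZEB2 and SNAI2 lie between -0.44 and -0.20.

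The 6 factors summed to 22.8 ± 3.03 FPKM in siNC and 20.0 ± 1.63 in siSHMT2 (SD, n = 3), with overlapping libraries. TWIST1 made up 44.6 ± 3.96% of that sum in siNC and 48.8 ± 2.11% in siSHMT2. The ZEB1 share was 7.18 ± 1.01% and 7.78 ± 0.469% (exact permutation test, two-sided, p = 0.5). By reads, ZEB1's share differed by 2.03 percentage points, against 0.600 by FPKM. For the share by reads the same exact test gave p = 0.1, the smallest that 3 against 3 libraries allow, so this outcome depends on the length scaling.

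In siNC cells the order of levels by FPKM was CDH2, TWIST1, SNAI2, then SNAI1, ZEB2, ZEB1 and TWIST2, then CDH13, CDH11 and CDH1. The neighbours from SNAI1 to TWIST2 overlapped in their library ranges, and all other neighbours were apart in all 3 libraries. In siSHMT2 cells TWIST1 came before CDH2 in all 3 libraries. The log2 ratio of CDH2 to TWIST1 was 0.89, 0.54 and 0.48 in the siNC libraries and -0.39, -0.59 and -0.61 in the siSHMT2 libraries. The siSHMT2 neighbours ZEB1, TWIST2, ZEB2 and SNAI1 overlapped in range, as did CDH13 and CDH11.

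FPKM depends on the length given to a gene, and the table's ZEB2 length of 24861 bases is 2.59 times its longest coding transcript in GENCODE release 29 (9583 bases). Scaled to that transcript, ZEB2 was at 4.35 ± 0.267 in siNC and 3.26 ± 0.0587 in siSHMT2 (SD, n = 3) and took rank 4 in both groups, apart from ZEB1 (2.24 ± 0.298 and 2.14 ± 0.0461). CDH11, with a table length of 13275 bases against 6874, was at 0.585 and 0.845 on that scale. The places of CDH2, TWIST1 and SNAI2 were the same on both scales, though the CDH2 and SNAI2 libraries of siSHMT2 came close (7.08 to 7.48 and 6.30 to 7.06).

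**Figure D4:**
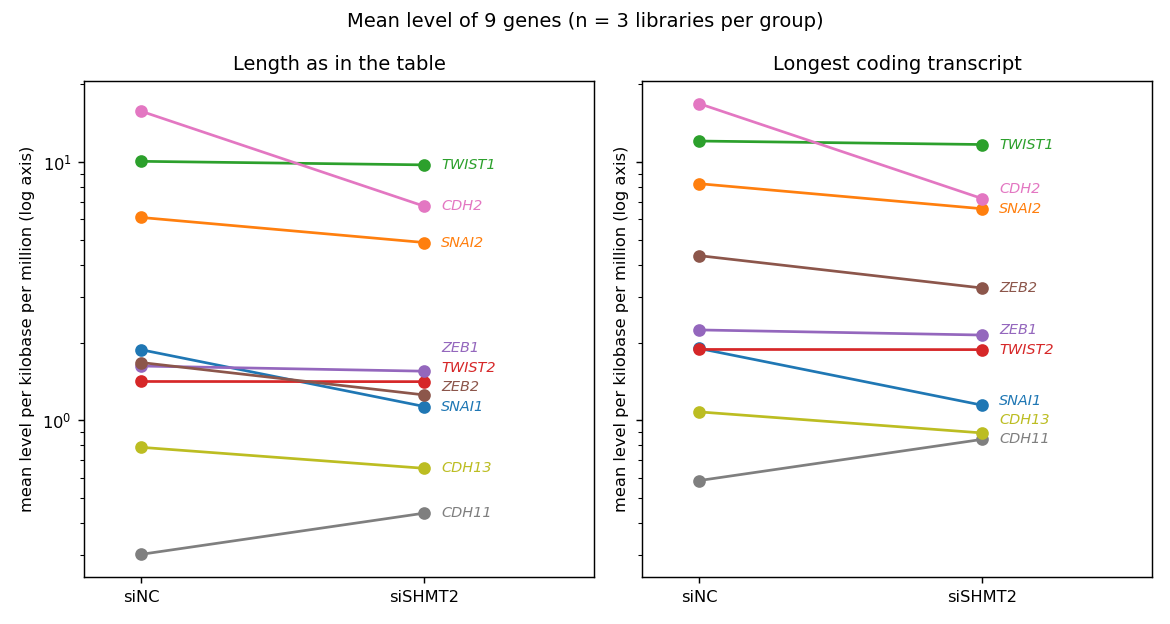
Mean level of 9 of the genes (without CDH1) in siNC and siSHMT2 on log axes, n = 3 libraries per group, with the length in the table (left) or of the longest coding transcript (right). The lines of CDH2 and TWIST1 cross, and ZEB2 moves from among ZEB1, TWIST2 and SNAI1 on the left to rank 4 on the right.

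The promoters of 4 of the 10 genes were at hand (RefSeq, GRCh38.p14, 250 bases before to 50 after each start site): 7 windows for ZEB1, 2 for CDH2 and 1 each for ZEB2 and TWIST2. Promoters of SNAI1, SNAI2, TWIST1, CDH1, CDH11 and CDH13 were not used here. The E-box CAGGTG, which SNAI and ZEB proteins bind, and its reverse complement CACCTG were searched, so that both strands were covered. They occurred in 2 of these 11 windows, both of ZEB1, and in 20.6% of all 35116 promoter windows of that length. These windows held 4 E-boxes, of which 2 are shown, 1 from each window, because ZEB1 is itself a factor of this class and its transcript did not pass the test. The E-boxes not shown lie in the same window as the second sequence. The sequences are on the plus strand, with the E-box in capitals, and the E-boxes begin 57 and 85 bases before a start site.
ZEB1 (chr10:31318348-31318377): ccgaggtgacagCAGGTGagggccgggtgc
ZEB1 (chr10:31319119-31319148): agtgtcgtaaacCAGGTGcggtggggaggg

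The 300-base windows of CDH2 held no such E-box, which says only that these letters are absent there. A match is a description and no evidence of binding.

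Over the 6 libraries, the protein-coding genes with the pattern most like CDH2 on the log2(FPKM + 1) scale were SPIN4 (Pearson r = 0.9995), CPD, a carboxypeptidase of the trans-Golgi (r = 0.9992), and MAP3K20, a stress-activated kinase (r = 0.9992). SPIN4 was at 3.94, 2.54 and 3.07 FPKM in siNC and at 0.653, 0.764 and 0.693 in siSHMT2. The points share the 2 groups, so any gene that fell in the same way comes close to 1, and 92 genes had r of at least 0.99.

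Other genes of the pathway were taken from lists, of which the counts and medians stand beside 9.85% called lower, 6.07% called higher and a median log2 difference of 0.02 over all genes tested. Among the 44 other cadherin superfamily genes only 6 had a mean of at least 1 FPKM. Of these CELSR3, a cadherin of planar polarity, fell (3.14 ± 0.167 to 2.10 ± 0.0213 FPKM, SD, n = 3, log2 difference -0.41, limma adjusted p = 0.0221), 0 rose, and the median was 0.02. Chosen after their values were seen, the highest classical cadherins besides CDH2 were CDH24 (15.04 FPKM in siNC and 15.8 in siSHMT2, adjusted p = 0.761) and CDH4 (5.24 and 5.12, adjusted p = 0.869). In siSHMT2 CDH24 was above CDH2, which had a mean of 6.75 FPKM there, and in siNC the libraries of these genes overlapped in range. The CELSR3 call was lost without siNC replicate 3 or any 1 siSHMT2 library (adjusted p up to 0.101).

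Of the catenins and adherens junction partners, 19 of 24 were tested, 1 fell, 1 rose, and the median was 0.06. ADAM10, a protease that sheds cadherin ectodomains, fell from 5.60 ± 0.879 to 3.84 ± 0.267 FPKM (SD, n = 3, log2 difference -0.44, limma adjusted p = 0.0408). JUP, the catenin plakoglobin, rose from 5.88 ± 0.750 to 8.92 ± 0.389 FPKM (log2 difference 0.53, limma adjusted p = 0.0154). Of the other catenins, 3 chosen after their values were seen were not called: CTNNB1 was at 10.4 and 11.3 FPKM in siNC and siSHMT2, CTNNA1 at 43.2 and 38.4, and CTNND1 at 13.5 and 16.2. JUP was not called without any 1 siSHMT2 library (adjusted p up to 0.0701), nor was ADAM10 without siNC replicate 1 or 3 or any 1 siSHMT2 library (up to 0.146).

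The E proteins and ID proteins set how TWIST factors pair: E proteins are their partners, and ID proteins bind E proteins and keep them from DNA. Of 9 genes 4 were tested, 1 rose, 0 fell, and the median was 0.19. TCF3, the E protein gene that encodes E12 and E47, was at 13.6, 12.7 and 14.9 FPKM in siNC and at 30.6, 28.3 and 30.2 in siSHMT2. Every siSHMT2 library was far above every siNC library. The means were 13.7 ± 1.13 and 29.7 ± 1.22 FPKM (SD, n = 3), a log2 difference of 1.06 (SE 0.102, limma adjusted p = 0.000712), which stayed called without any 1 library (adjusted p up to 0.00843). Its partner TWIST1 did not pass the test, as given above. Of the other E protein genes, named after their values were seen, TCF12 was not called (log2 difference -0.11, limma adjusted p = 0.672). TCF4, under 1 FPKM and not tested, was at 0.730, 0.778 and 0.642 FPKM in siNC and 0.557, 0.455 and 0.409 in siSHMT2. Groups that do not overlap occurred in 25.9% of genes with a mean under 1 FPKM and at least 60 reads.

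Of 27 other transcription factors tied to mesenchymal identity, 13 were tested, 4 fell, 0 rose, and the median was -0.13. HMGA2, a chromatin architectural factor, fell from 3.97 ± 0.637 to 1.06 ± 0.0101 FPKM (SD, n = 3, log2 difference -1.27, limma adjusted p = 0.000603). FOXC2, a forkhead factor, fell from 5.95 ± 0.598 to 2.39 ± 0.563 FPKM (log2 difference -1.05, limma adjusted p = 0.00293). Both stayed called without any 1 library. TBX3, a T-box repressor, and TEAD1, the DNA-binding partner of YAP, fell by 0.40 and 0.66 on the log2 scale (adjusted p = 0.0226 and 0.0342). TBX3 was not called without any 1 siSHMT2 library (up to 0.121), nor TEAD1 without siNC replicate 1 or 2 or siSHMT2 replicate 1 or 3 (up to 0.123). After rescaling to TPM or with plain read sums, 2 genes of this list were called, and with the filter at 5 FPKM 1 was.

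Of 25 corepressors and chromatin partners of SNAI and ZEB proteins 22 were tested, 2 fell, 1 rose, and the median was -0.09. AJUBA, a LIM protein that bridges SNAI1 to its corepressors, fell from 10.5 ± 1.71 to 5.38 ± 0.449 FPKM (SD, n = 3, log2 difference -0.85, limma adjusted p = 0.00436), and stayed called without any 1 library. DNMT1, the maintenance DNA methyltransferase, fell by 0.83 (adjusted p = 0.0193) and the deacetylase HDAC1 rose by 0.43 (adjusted p = 0.0348). DNMT1 was not called without siNC replicate 3 or any 1 siSHMT2 library (up to 0.0711), nor HDAC1 without siNC replicate 1 or 3 or any 1 siSHMT2 library (up to 0.142). With library weights 10 genes of this list were called, where 1827 genes were called higher and 1976 lower over all 10865 tested (659 and 1070 without weights).

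Of 26 kinases, ligases and deubiquitinases that act on these factors' proteins 20 were tested, 1 fell, 0 rose, and the median was 0.00. FBXL5, a ubiquitin ligase subunit with SNAI1 among its targets, fell from 12.2 ± 2.06 to 6.84 ± 0.451 FPKM (SD, n = 3, log2 difference -0.74, limma adjusted p = 0.00924) and stayed called without any 1 library. After rescaling to TPM no gene of this list was called.

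Of 26 epithelial genes that SNAI and ZEB factors repress, 5 had a mean of at least 1 FPKM, 0 were called in either direction by limma, and the median was 0.21. Named after their values were seen, the 5 were KRT8 (43.2 ± 3.69 and 57.0 ± 7.33 FPKM in siNC and siSHMT2, SD, n = 3), KRT18 (107 ± 21.0 and 78.3 ± 12.2), LLGL2, MUC1 and CLDN4. KRT8 and KRT18 encode keratins that pair with each other, and their means differed in opposite directions (log2 differences 0.39 and -0.44, limma adjusted p = 0.0918 and 0.155).

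Of 24 mesenchymal genes that go with these factors 20 were tested, 4 fell, 0 rose, and the median was -0.18. Among the genes that fell, the filament protein VIM, the ectonucleotidase NT5E and the hyaluronan receptor CD44 did so by 0.71, 0.62 and 0.47 on the log2 scale (limma adjusted p = 0.0191, 0.0156 and 0.0270). COL1A1 and COL1A2, the chains of type I collagen, were not called (log2 differences -0.10 and 0.22, adjusted p = 0.694 and 0.319), nor was PDGFRB (-0.20, adjusted p = 0.385). VIM was not called without siNC replicate 3 or any 1 siSHMT2 library (adjusted p up to 0.0949), NT5E without siNC replicate 3 or siSHMT2 replicate 1 or 3 (up to 0.0872), or CD44 without any 1 siSHMT2 library (up to 0.134).

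Scaling also bore on these lists. Rescaling to TPM ended the calls of CELSR3, ADAM10, TBX3, TEAD1, DNMT1, FBXL5, NT5E and CD44 (limma adjusted p from 0.0506 for FBXL5 to 0.219 for ADAM10) without turning a direction, and left TCF3, JUP, HMGA2, FOXC2, AJUBA, HDAC1 and VIM called. Without a filter on low values, VIM (adjusted p = 0.114), HDAC1 (0.0675), CELSR3 (0.0591), ADAM10 (0.121), TEAD1 (0.133) and DNMT1 (0.0889) were not called.

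**Figure D5:**
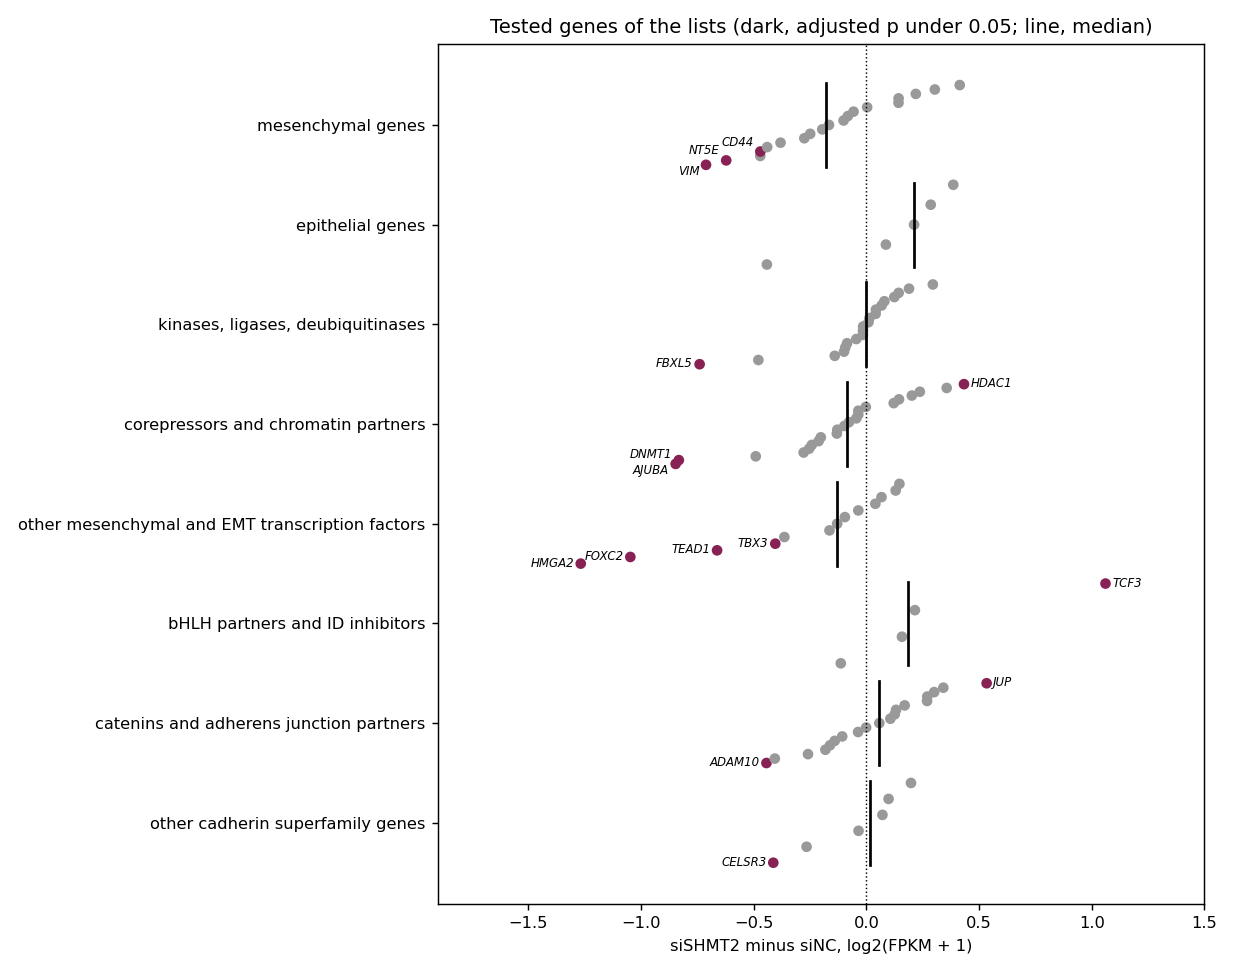
Difference of siSHMT2 minus siNC on the log2(FPKM + 1) scale for the tested genes of 8 lists (points, 1 gene not shown), with the list's median (line) and called genes in dark with their symbols. TCF3 at 1.06 is the highest called gene shown, and HMGA2 at -1.27 and FOXC2 at -1.05 are the lowest.

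Noncoding genes on the opposite strand share exonic bases with TWIST1 (6.94% of its exonic bases), ZEB2 (5.18%), ZEB1 (4.23%), CDH1 (5.62%), CDH2 (2.75%) and CDH13 (1.26%). The highest of these overlapping genes was ZEB1-AS1, at 0.459 to 0.711 FPKM. Whether counting used strand is not stated in the labels or the table, and reads of the shared bases cannot be told apart. Of 10 names listed as antisense or neighbouring noncoding genes 4 were in the table, and 0 reached the level needed for the test.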

How the data were processed

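RNA-seq libraries were made from total RNA of LX2 cells with a SMARTer mRNA kit, per the labels' protocols. The authors deposited 1 table of FPKM values with gene coordinates and lengths. The submitters' processing notes name HISAT2 2.0.5, the counter featureCounts 1.5.0-p3 and hg18. The table's coordinates match GRCh38: of 58516 identifiers shared with GENCODE release 29, 99.99% overlapped and 79.7% were identical. Groups came from the sample titles.

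FPKM times gene length gave whole reads for 100% of values above 0 (within 0.02), 14722344 to 15669139 per library. FPKM was scaled to other totals, 14487813 to 17495471, and how these arose is not stated in the labels or header. Groups were compared with limma 3.58.1 (R 4.3.3), moderated along a trend, on log2(FPKM + 1), for genes with a mean of at least 1 FPKM, with Benjamini-Hochberg adjustment over all genes tested. Shares were compared by exact permutation (scipy 1.17.1). Fits were tested on simulated data with the same spread between libraries set for every gene and both groups, and not estimated from these libraries. There 27.7% of 1.5-fold changes and 85.4% of 2-fold changes were called. These rates are taken over tested genes of all levels and need not hold for low ones. A gene that did not pass the test is thus not shown to be unchanged. Alternatives covered the pseudocount, filter, scaling, biotype, moderation, weights, a replicate block, voom on the recovered reads and each library left out; plain read sums, voom quality weights and robust moderation were chosen after seeing the data.

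The 10 genes, the 9 lists and the markers were chosen with earlier results of these data known. Named were SHMT2, the 10 genes, up to 4 called genes of each list with the smallest adjusted p, the 3 genes most like CDH2 and 5 stellate markers. A gene that this rule names is not reported here.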

Additional observations from a re-analysis of the deposited data

How the results depend on the processing

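CDH2 stayed called lower under all 19 alternatives. Over all genes 659 were called higher and 1070 lower. Without a filter these were 333 and 603, with library weights 1827 and 1976, and 229 to 729 and 498 to 1132 with each library left out. The lower count was 618 with the filter at 5 FPKM and 620 after rescaling to TPM, and voom with quality weights called 1796 higher. The share of lower among called genes, 61.9%, was 47.5% by TPM, 49.1% with plain read sums and 48.3% by voom. TPM moved the median of all genes from 0.02 to 0.11 on the log2 scale, where CDH2 stood at -1.08. Members called lower (1) were 3 with library weights, 2 by voom with quality weights, and 1 to 2 with each library left out. The cause of these shifts was not tested.

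The deviations of same-numbered libraries from their group means had correlations of -0.018, -0.349 and 0.243. Those of libraries with different numbers ran from -0.483 to 0.496. With 3 libraries per group, these values cannot show whether the numbers pair the libraries. With the replicate number as a block 374 genes were higher and 696 lower, CDH2 was at -1.10 (limma adjusted p = 0.00808), members called lower stayed at 1, and the list counts became 0 for other cadherins, 1 for catenins and 1 for mesenchymal genes.

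Called genes per list, in either direction, shifted as follows, and the cause was not tested. The counts over all genes shifted as well. They were 1827 higher and 1976 lower with library weights and 1796 and 1323 with quality weights, against 659 and 1070 without weights. Other cadherins (1) were at 0 without a filter, at 5 FPKM, by TPM and with plain sums, and 0 to 1 with each library left out. Catenins (2) were at 1 without a filter, at 5 FPKM, by TPM, by voom with either gene set and with plain sums, at 8 with library weights, 7 with quality weights, and 0 to 4 with each library left out. The bHLH and ID list (1) was at 2 without a filter and with either set of weights. Other transcription factors (4) were at 1 with the filter at 5 FPKM, 2 by TPM and with plain sums, and 2 to 4 with each library left out. Corepressors (3) were at 1 without a filter, 5 among protein-coding genes, 10 with library weights, 7 with quality weights, and 1 to 6 with each library left out. Kinases and ligases (1) were at 2 with the filter at 5 FPKM, among protein-coding genes, by voom and with plain sums, 0 by TPM, 4 with either set of weights, and 1 to 2 with each library left out. Epithelial genes (0) were at 1 by TPM, voom with either gene set and plain sums, 3 with library weights, 4 with quality weights, and 0 to 1 with each library left out. Mesenchymal genes (4) were at 11 with library weights, 9 with quality weights, 7 with plain sums, and 1 to 7 with each library left out.

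The CDH2 share differed by -14.5 percentage points by reads and the ZEB1 share by 2.03. Signs turned only in uncalled differences near 0. TWIST1 was at 0.045 by TPM, 0.030 by voom with either gene set, 0.028 with plain sums, and -0.093 to 0.029 with each library left out. ZEB1 was at 0.026 by TPM, 0.016 with library weights, 0.020 and 0.019 by voom with the same genes and with at least 60 reads, 0.0085 with plain sums, 0.083 with quality weights, and -0.079 to 0.029 with each library left out. TWIST2 was at -0.079 to 0.18 with each library left out. Depth limits CDH1, CDH11, SNAI1 and TWIST2, which rest on few reads.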
